A study of Homo sapiens with 6 samples.

Results

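The genes described here are 9 complement components of the 19899 genes in the count table: C1R, C1S, C2, C3, C4A, C4B, CFB, CFI and CD55. They were taken by symbol, and every symbol had 1 row. RNA-seq was performed in COV434, an ovarian line placed by the study among its SCCOHT lines. SCCOHT is a small cell ovarian cancer without BRG1, the SWI/SNF chromatin remodeling ATPase encoded by SMARCA4. All 6 samples were transiently co-transfected with pBABE-puro, for puromycin resistance, and with either pCDNA3-neo (Control, n = 3) or PBJ5-BRG1 (BRG1, n = 3). Puromycin at 2 to 3 µg/ml was added 24 h later for 3 days. The comparison asks which RNAs differed once BRG1 was put back, in a selected population of 1 cell line. SMARCA4 rose 57.2-fold with plasmid transcripts counted in, and every BRG1 sample was above every Control sample. SMARCA2, the related ATPase gene, had normalised counts of 16.4 ± 10.9 (SD, n = 3) in Control and 24.1 ± 15.9 in BRG1 samples and was not called (DESeq2 adjusted p = 0.831). The libraries held 29699741 to 63613710 estimated counts. BRG1 sample 1 was the deepest and BRG1 sample 3 the shallowest.

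Complement is a cascade of plasma and cell surface proteins that tags cells and microbes for removal. In the classical pathway, the proteases C1r and C1s of the C1 complex cut C4 and C2, whose fragments join into an enzyme that cuts C3, the protein on which all routes converge. In the alternative pathway factor B takes the place of C2. Factor I, a protease, and CD55, a membrane protein also called decay accelerating factor, restrain the C3 convertases. The liver makes most of the circulating proteins, and many epithelial cells transcribe these genes as well, in particular under interferons and inflammatory cytokines.

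C4A and C4B are near-identical copies, so how far their reads can be told apart bears on their values below. Their MANE Select transcripts each had 5427 bases and differed at 13, all of them coding, an identity of 99.8%. Of the 5350 windows of 78 bases in the C4A transcript, 4851 (90.7%) occurred unchanged in C4B. These windows stand for single reads, whereas the reads were paired, so a pair can be told apart more often. The stretch from base 3389 to 3448 is shown because it holds 5 of the 13 differences, which are in capitals (GENCODE release 44).
C4A: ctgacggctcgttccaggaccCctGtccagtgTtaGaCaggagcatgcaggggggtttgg
C4B: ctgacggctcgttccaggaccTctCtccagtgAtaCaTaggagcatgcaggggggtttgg

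Promoters are shown for members that moved together below. RefSeq windows of the 250 bases before the start of the MANE Select transcript (GRCh38.p14) were found for 4 members, namely C1R, CFB, CFI and CD55, while those of C2 lie at other starts. Each of the 4 was searched on both strands for 5 motifs of factors that act in cytokine responses. CFB held an IRF element (TTCNNTTTC) 139 bases and a STAT element (TTCNNNGAA) 92 bases before the start, both in capitals. C1R held a C/EBP element (TTGCNNAA, matched here by its reverse complement), also in capitals, 106 bases before its start. A further RefSeq window of C1R, at another start and not shown, held a STAT element 86 bases and a C/EBP element 167 bases before that start. The windows of CFI and CD55 matched none of these and neither AP-1 (TGANTCA) nor NF-kappaB (GGANTTNCC) letters. Among 35116 RefSeq promoters of the same length 6.88% held the IRF letters, 6.57% the STAT letters, 9.05% the C/EBP letters, 6.57% the AP-1 letters and 3.67% the NF-kappaB letters.
CFB promoter, chr6:31945845-31946094, plus strand: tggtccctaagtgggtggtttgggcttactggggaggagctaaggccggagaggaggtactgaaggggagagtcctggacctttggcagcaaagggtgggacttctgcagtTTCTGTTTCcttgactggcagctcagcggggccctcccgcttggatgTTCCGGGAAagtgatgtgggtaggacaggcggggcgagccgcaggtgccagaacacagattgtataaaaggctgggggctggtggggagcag
C1R promoter, chr12:7092446-7092695, minus strand: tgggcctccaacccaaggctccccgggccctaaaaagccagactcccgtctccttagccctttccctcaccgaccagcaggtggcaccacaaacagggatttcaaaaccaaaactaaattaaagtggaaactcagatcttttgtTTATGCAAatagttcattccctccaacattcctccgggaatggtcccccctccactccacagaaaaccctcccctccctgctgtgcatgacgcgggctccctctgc

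Of the 9 complement components, 8 rose in BRG1 samples and C2 alone was not called. C3 and CFI rose most, from near the detection limit, followed by C1R and C1S, then CFB, and then C4A, C4B and CD55. A gene was called when its adjusted p was under 0.05 in the DESeq2 test, in which 11.0% of the 15991 genes tested were called higher and 1.84% lower. Neither DESeq2 nor edgeR called any of the 9 lower, and 0 fell at an unadjusted p under 0.05. The edgeR test, which called 9.57% of genes higher, called the same 8 members. In all 8 every BRG1 sample lay above every Control sample, a separation that 16.7% of the genes tested also showed. The median log2 fold change was 2.59 over the 9 members and -0.01 over all genes tested. RNA was taken from whole cultures, so more cells transcribing a gene and more RNA per cell cannot be told apart.

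**Figure D1:**
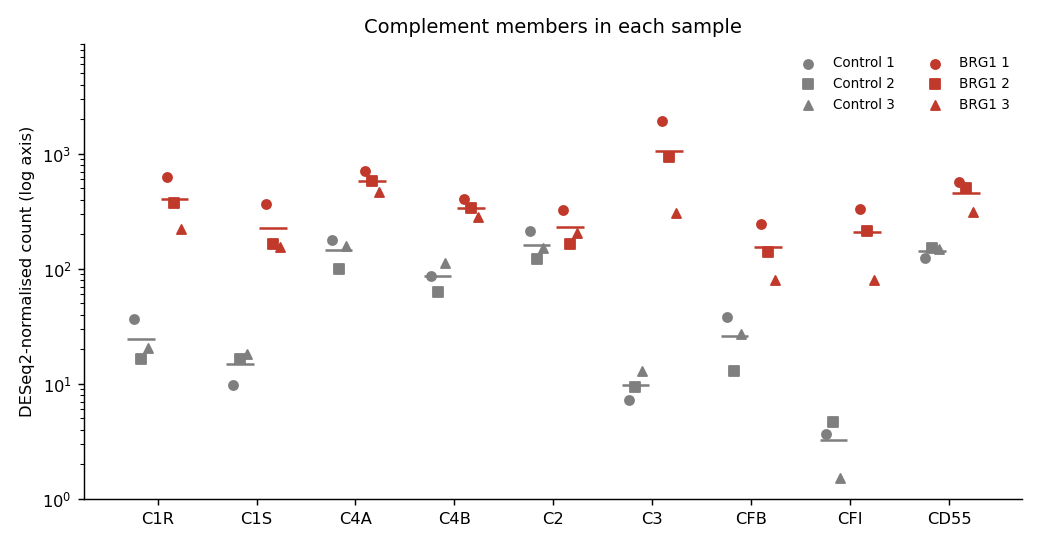
Normalised counts (log axis) of the 9 complement components in the 3 Control and 3 BRG1 samples, with 1 point per sample and a marker shape per replicate number. Control and BRG1 points overlap for C2 and separate for the other 8, and C3 spans 303 to 1922 across BRG1 samples.

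The initiating proteases rose together. C1R, whose product is activated first and then cuts C1s, had normalised counts of 36.5, 16.4 and 20.4 in Control samples 1 to 3 and of 629, 372 and 222 in BRG1 samples 1 to 3. The lowest BRG1 sample was thus far above the highest Control sample. The means were 24.5 ± 10.7 and 408 ± 206 (SD, n = 3), and C1R rose 16.7-fold, with a log2 fold change of 4.07 (SE 0.46, DESeq2 adjusted p = 5.9e-17, edgeR adjusted p = 0.00142). C1S, the protease that cuts C4 and C2, had 9.75, 16.4 and 18.2 in Control samples and 364, 164 and 155 in BRG1 samples. These groups did not overlap, and BRG1 sample 1 stood above the other two. C1S rose 15.4-fold, from 14.8 ± 4.45 to 228 ± 118 (SD, n = 3), with a log2 fold change of 3.93 (SE 0.48, DESeq2 adjusted p = 1.4e-14, edgeR adjusted p = 0.00137). The log2 ratio of C1R to C1S was 1.91, 0.00 and 0.17 in Control samples and 0.79, 1.19 and 0.52 in BRG1 samples. It differed by 0.14 between the groups, less than the spread between samples (two-sided exact permutation test, p = 0.900), and leaving out Control sample 2 or 3 or BRG1 sample 2 turned its sign. The genes lie near each other on chromosome 12 of GRCh38, C1S (ENSG00000182326.17) from 6988259 to 7071032 on the plus strand and C1R (ENSG00000159403.18) from 7080214 to 7092540 on the minus strand. Of the exonic bases of C1R 11.6% overlap C1RL, a neighbouring gene.

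C4, the substrate of C1s, is encoded by C4A and C4B. C4A had normalised counts of 179, 99.7 and 157 in Control samples and of 712, 579 and 463 in BRG1 samples. C4B had 86.5, 63.3 and 112 in Control samples and 401, 338 and 281 in BRG1 samples. Both were transcribed in every Control sample, and neither had overlapping groups. C4A rose 4.03-fold, from 145 ± 40.9 to 584 ± 125 (SD, n = 3), with a log2 fold change of 2.01 (SE 0.29, DESeq2 adjusted p = 1.0e-10, edgeR adjusted p = 0.00303). C4B rose 3.89-fold, from 87.3 ± 24.4 to 340 ± 60.3 (SD, n = 3), with a log2 fold change of 1.95 (SE 0.29, DESeq2 adjusted p = 7.4e-10, edgeR adjusted p = 0.00361). As most of their sequence is shared, the split between the copies rests on the authors' quantification model, and the sum of both is the firmer value. The log2 fold change of the summed counts was 1.99 (DESeq2 adjusted p = 3.1e-12, edgeR adjusted p = 0.00184). A further C4 row, C4B_2, held 2.81 to 10.4 estimated counts per sample and was left out of the sum. C4A took 67.4%, 61.2% and 58.3% of the summed C4 counts in Control samples and 64.0%, 63.1% and 62.2% in BRG1 samples. The shares overlapped, and the difference of 0.81 percentage points was smaller than the spread between Control samples (two-sided exact permutation test, p = 0.80, where 0.10 is the smallest p that 3 samples against 3 allow). On chromosome 6, both on the plus strand, C4A (ENSG00000244731.10) lies from 31982057 to 32002681 and C4B (ENSG00000224389.9) from 32014795 to 32035418. Other genes, among them an antisense gene at each copy, overlap 11.5% of the exonic bases of C4A and 7.25% of those of C4B, and the libraries did not keep strand.

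C2 and CFB encode the proteases that pair with C4 and C3 fragments in the classical and the alternative convertase, and they are adjacent genes. C2 had normalised counts of 214, 121 and 152 in Control samples and of 323, 163 and 204 in BRG1 samples. Only BRG1 sample 1 was above every Control sample. The means were 162 ± 47.6 and 230 ± 83.0 (SD, n = 3), and the log2 fold change was 0.51 with a 95% interval from -0.19 to 1.20 (DESeq2 adjusted p = 0.489, edgeR adjusted p = 0.504). Within each replicate number the BRG1 sample was the higher one, by 1.51, 1.35 and 1.34 times, and blocking on the replicate number gave a DESeq2 adjusted p of 0.195. CFB had 37.8, 12.9 and 27.3 in Control samples and 247, 140 and 80.6 in BRG1 samples. The groups did not overlap, although CFB was the least separated of the called members by adjusted p. CFB rose 6.00-fold, from 26.0 ± 12.5 to 156 ± 84.1 (SD, n = 3), with a log2 fold change of 2.59 (SE 0.54, DESeq2 adjusted p = 2.2e-05, edgeR adjusted p = 0.0178).

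The log2 ratio of CFB to C2 was -2.51, -3.23 and -2.48 in Control samples and -0.39, -0.21 and -1.34 in BRG1 samples. The ratio was higher in each BRG1 sample than in any Control sample, by 2.09 on average, and the two-sided exact permutation p of 0.10 was the smallest possible. The log2 ratio of C4A to C2 likewise was -0.26, -0.28 and 0.04 in Control and 1.14, 1.83 and 1.18 in BRG1 samples, a difference of 1.55 with the same exact permutation p of 0.10. These ratios were chosen after the values were seen. Over the 5 ratios and shares tested, which include CFI to C3 (difference -0.49, exact permutation p = 0.600), the Benjamini-Hochberg adjusted p was 0.250 for both and 0.900 for the others. C2 (ENSG00000166278.16) lies on chromosome 6 from 31897785 to 31945673 and CFB (ENSG00000243649.10) from 31945650 to 31952086, on the plus strand. The gene models overlap at their ends, and a readthrough model joins them. Other gene models, the readthrough model among them, overlap 30.0% of the exonic bases of C2 and 42.8% of those of CFB. Reads there could be assigned to those models. C2 and CFB themselves overlap only from 31945650 to 31945673.

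C3, the central component, showed the largest change of the 9. Its normalised counts were 7.31, 9.38 and 12.9 in Control samples and 1922, 938 and 303 in BRG1 samples. Control samples were all close to the detection limit, whereas BRG1 samples differed from each other by 6.34 times. C3 rose 107-fold, from 9.85 ± 2.81 to 1054 ± 816 (SD, n = 3), with a log2 fold change of 6.72 (SE 0.60, DESeq2 adjusted p = 6.7e-27, edgeR adjusted p = 0.00110). Within replicate numbers 1 to 3 the fold was 263, 100 and 23.5, so its size depended on the pair taken while its direction did not. Without BRG1 sample 1 the log2 fold change was 5.95. The C3 gene (ENSG00000125730.18) spans chromosome 19 from 6677704 to 6730562, minus strand, and 11.7% of its exonic bases overlap another gene model.

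Both members that restrain C3 convertases rose. CFI encodes factor I, which cuts C3b and C4b with the help of cofactors. Its normalised counts were 3.65, 4.69 and 1.51 in Control samples and 334, 213 and 80.6 in BRG1 samples. CFI was near the limit of detection in Control samples, where 9 rounded counts were found in all against 772 in BRG1 samples. Corrected for library size, these pooled counts gave a 79.0-fold difference, with a 95% exact binomial interval from 41.4 to 173 that covers counting error only. The ratio of mean normalised counts, which is the fold printed for the other called members, was 63.7. The log2 fold change across samples was 6.07 (SE 0.72, DESeq2 adjusted p = 1.9e-15, edgeR adjusted p = 0.00122). Its folds within replicate numbers were 91.5, 45.5 and 53.2. CFI (ENSG00000205403.15) lies on chromosome 4 from 109731008 to 109802150 on the minus strand, and 29.4% of its exonic bases overlap another gene model.

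CD55 speeds the decay of C3 convertases at the cell surface. It had normalised counts of 125, 151 and 149 in Control samples and of 564, 503 and 310 in BRG1 samples. Control samples lay close together, and the lowest BRG1 sample was above them all. CD55 rose 3.23-fold, from 142 ± 14.3 to 459 ± 132 (SD, n = 3), with a log2 fold change of 1.70 (SE 0.28, DESeq2 adjusted p = 4.0e-08, edgeR adjusted p = 0.00510). The CD55 gene (ENSG00000196352.18) spans chromosome 1 from 207321519 to 207386804, plus strand, with no exonic overlap with another gene.

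**Figure D2:**
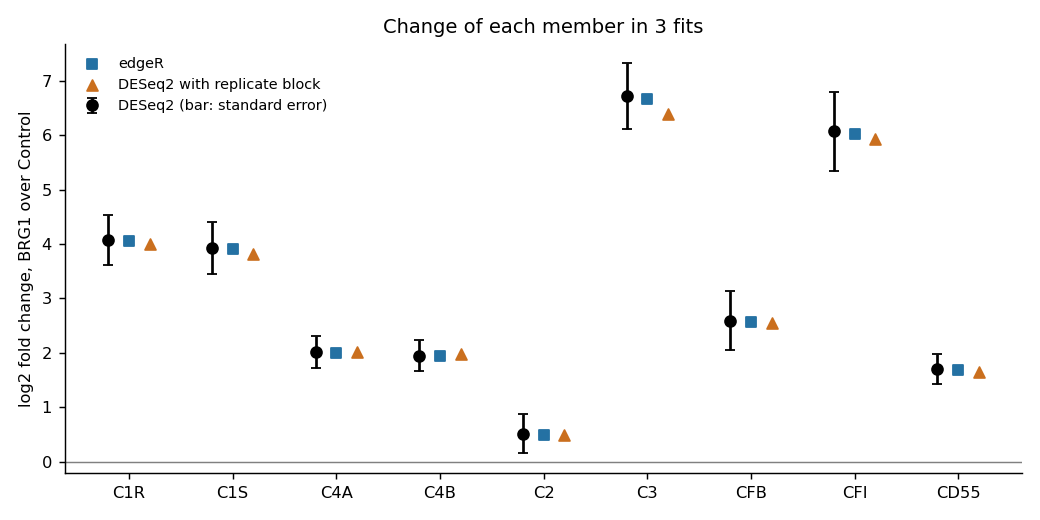
Log2 fold changes of BRG1 over Control for the 9 complement components from DESeq2 (circles, bars for the standard error), edgeR (squares) and DESeq2 with the replicate number as a block (triangles). C2 sits nearest 0 at 0.51 with DESeq2, the other 8 lie between 1.70 and 6.72, and the 3 fits give each gene a similar value.

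The 8 called members differed in the same order among BRG1 samples, with sample 1 highest and sample 3 lowest in each. Of the 1764 genes called higher, 1207 (68.4%) had this order too. SMARCA4 was highest in sample 1 and nearly equal in samples 2 and 3, with 108655, 79075 and 78589 normalised counts. Library depth had the same order as the members, and its part in that order was not tested. The highest BRG1 sample exceeded the lowest by 6.34 times for C3 and 4.15 times for CFI. That spread was 1.43 times for C4B and 1.54 times for C4A, against 1.38 times for SMARCA4. C3 and CFI, the lowest of the 9 per kilobase in Control samples, thus varied most among BRG1 samples. C2 kept a different order, with sample 2 lowest.

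**Figure D3:**
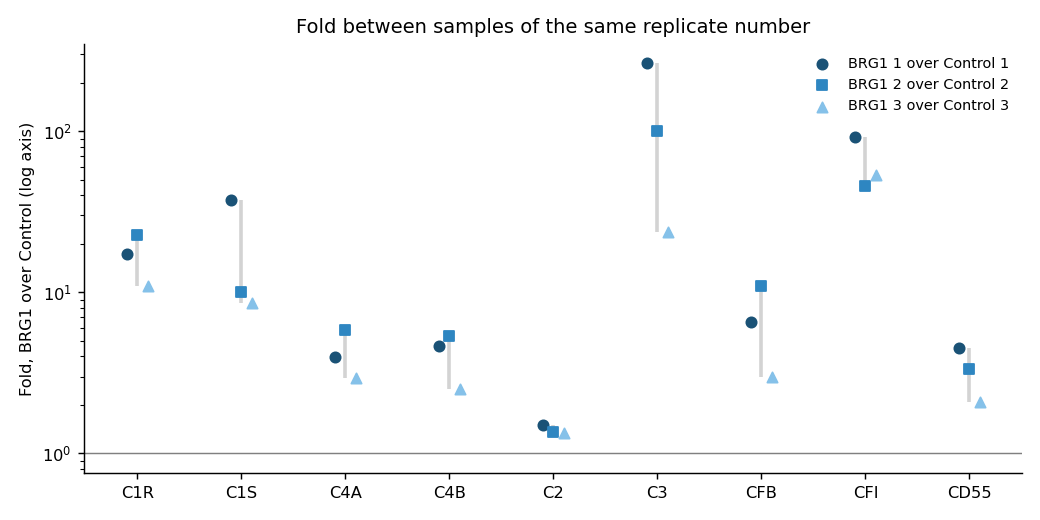
Fold of the BRG1 sample over the Control sample with the same replicate number (log axis), with 1 point per number for each complement component. The folds of C3 run from 23.5 to 263 and those of C2 from 1.34 to 1.51, and every point lies above the line at 1.

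Levels can be compared between genes as normalised counts per kilobase of the MANE Select transcript. In Control samples C2 stood highest with 62.2 ± 18.3 per kilobase (SD, n = 3), next to CD55 with 54.8 ± 5.53, and these overlapped. C4A followed with 26.7 ± 7.54, C4B with 16.1 ± 4.49, CFB with 10.5 ± 5.04, C1R with 9.83 ± 4.28 and C1S with 5.51 ± 1.66. C3 and CFI were lowest with 1.88 ± 0.537 and 1.66 ± 0.819, and could not be ranked against each other. In BRG1 samples C3 stood first on average, with 202 ± 156 per kilobase, but ranged from 57.9 to 367 and was above CD55 in 1 of 3 samples only. CD55 had 177 ± 51.0, C1R 164 ± 82.6, C4A 108 ± 22.9 and CFI 106 ± 64.2. C2, first in Control samples, came sixth in BRG1 samples with 88.1 ± 31.8, ahead of C1S with 84.9 ± 44.1, CFB with 63.0 ± 34.0 and C4B with 62.6 ± 11.1. Most neighbours in this order differed by less than their spread, while C1R was above C4A, and C1S above CFB, in all 3 samples. Among the 16494 genes with such a length, C3 moved from percentile 20.6 in Control to 51.5 in BRG1 samples, CFI from 19.7 to 43.3 and CD55 from 40.1 to 49.8, whereas C2 stayed at 41.0 and 41.3.

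The other genes of the system were read from a list of 47, of which 28 were tested and 17 had at most 3 counts in every sample. DESeq2 called 6 higher, against 11.0% of all genes tested, and 0 lower. Of the 19 it tested, edgeR called 6 higher, against 9.57% of all genes, and 0 lower. At an unadjusted p under 0.05 in DESeq2, 0 fell. The median log2 fold change of the tested genes was 0.39. By role, 1 of 5 tested initiators, 4 of 6 fluid-phase regulators and 1 of 4 membrane regulators rose. Of the 13 fluid-phase regulators listed, 7 had at most 3 counts in every sample. C4BPB, with 0 counts in Control samples, was tested through its BRG1 counts alone. The 4 of 6 is therefore no share of that role as a whole. A single call among so few genes does not set a role apart from the share over all genes. Among the 2 tested genes of the alternative pathway and the 5 of the terminal pathway none was called by DESeq2, nor was any higher at an unadjusted p under 0.05. Among 6 tested receptors none was called and 1 was higher at an unadjusted p under 0.05.

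MASP1, a protease of the lectin pathway that is related to C1r and C1s, had 6.09, 1.17 and 6.06 normalised counts in Control samples and 300, 250 and 231 in BRG1 samples. Its log2 fold change was 5.82 (SE 0.48, DESeq2 adjusted p = 2.1e-31, edgeR adjusted p = 2.4e-04), and its 3 BRG1 samples lay closer together than those of C3. VTN, encoding vitronectin, an inhibitor of the terminal complex, went from 16.4 ± 5.79 to 321 ± 176 (SD, n = 3), with a log2 fold change of 4.32 (SE 0.49, DESeq2 adjusted p = 1.2e-16, edgeR adjusted p = 0.00138). CLU, encoding clusterin, which also binds the terminal complex, rose from 39.3 ± 18.5 to 248 ± 55.0 (SD, n = 3), with a log2 fold change of 2.67 (SE 0.38, DESeq2 adjusted p = 1.2e-10, edgeR adjusted p = 0.00372). These regulators act on later steps than CFI and CD55. C4BPB encodes a chain of the C4b-binding protein, a cofactor of factor I. It had 0 counts in all Control samples and 208, 105 and 17.9 normalised counts in BRG1 samples. Against a floor of 3 counts per library it was at least 35.0-fold higher (DESeq2 adjusted p = 5.7e-09, edgeR adjusted p = 0.0165), or at least 19.5-fold without BRG1 sample 1. C4BPA, which encodes the other chain and is named outside the naming rule, had 0 rounded counts in every sample. The rise of C4BPB is thus not a rise of both chain genes. SERPING1, the inhibitor of C1r and C1s, is named after its values were seen, because it fell below the mean count required for naming. It went from 5.39 ± 5.31 to 49.7 ± 22.4 (SD, n = 3), with a log2 fold change of 3.13 (SE 0.78, DESeq2 adjusted p = 8.1e-04, edgeR adjusted p = 0.0254), and without BRG1 sample 1 it was not called (DESeq2 adjusted p = 0.0705).

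Membrane regulators differed among themselves. CD59, which blocks the terminal complex at the cell surface, rose from 5732 ± 260 to 13363 ± 4130 (SD, n = 3), with a log2 fold change of 1.22 (SE 0.24, DESeq2 adjusted p = 5.1e-06, edgeR adjusted p = 0.00658). CD46, a cofactor of factor I, had 3028 ± 131 and 3040 ± 325, a log2 fold change of 0.01 with a 95% interval from -0.27 to 0.29 (DESeq2 adjusted p = 0.991). Its interval lay wholly below that of CD55, which ran from 1.14 to 2.25. Outside the naming rule, C5 and CFD, both well detected in each group, are examples of what was not called. C5, which opens the terminal pathway, had a log2 fold change of -0.54 (95% interval -1.33 to 0.25), and CFD, the protease that cuts factor B, had -0.09 (-0.70 to 0.52).

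**Figure D4:**
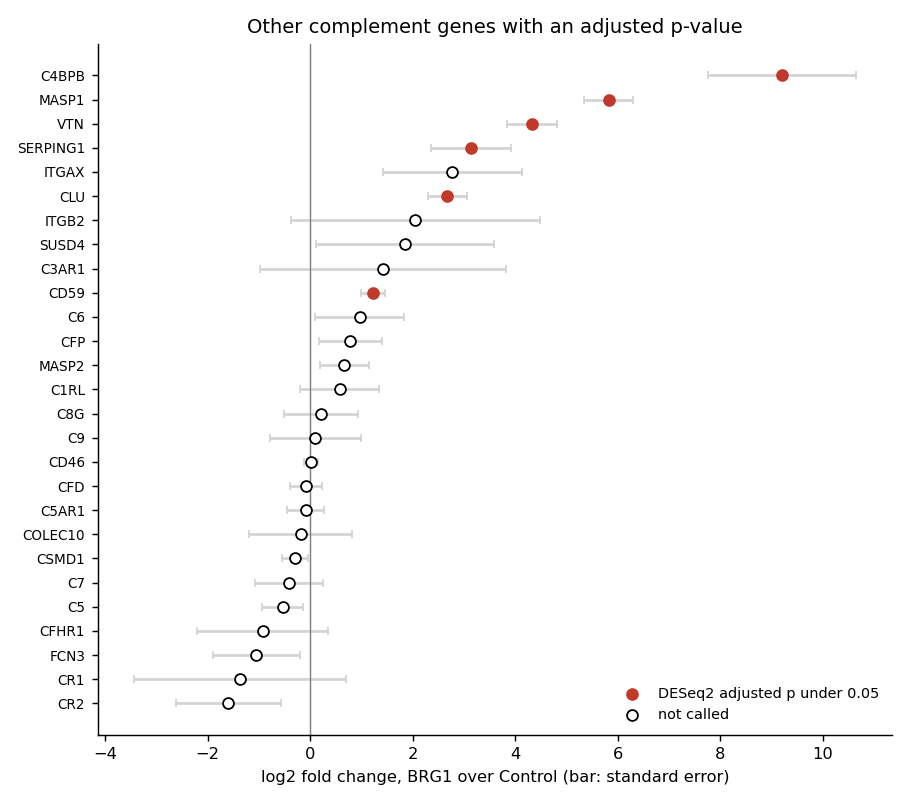
Log2 fold changes (DESeq2, bars for the standard error) of other complement genes with an adjusted p, with filled points for called genes. Of these genes 6 are called higher and 0 lower and CD46 sits at 0.01, while C4BPB had 0 counts in Control samples, so its plotted value depends on the fit and is no bound.

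Interferons and inflammatory cytokines are known inducers of C1R, C1S, C2, C3, C4 and CFB, and a list of 32 such ligands, receptors, signal transducers and transcription factors was read beside them. Of the 31 tested, DESeq2 called 12 higher, against 11.0% of all genes tested, and 0 lower. The edgeR test, which called 9.57% of all genes higher, called 9 of the list higher, and limma-voom called 8. With the replicate number as a block, a fit that called 13.4% of all genes higher and 6.62% lower, 19 were higher and LIFR, a cytokine receptor gene, was lower (adjusted p = 0.0304). The blocked edgeR fit called 17 higher and did not call LIFR (adjusted p = 0.0766). Without the block the genes called by DESeq2 were 6 of 7 ligands, 1 of 10 receptors and 5 of 14 signalling genes and factors. The receptors thus stood near the share over all genes. Among the ligands, TNF had overlapping groups (DESeq2 adjusted p = 0.0441) and was not tested by edgeR. Its call was lost without BRG1 sample 1 or 2 and without Control sample 2 or 3. IL1B rose from 9.75, 4.69 and 1.51 to 1288, 583 and 476 normalised counts, a log2 fold change of 7.30 (SE 0.59, DESeq2 adjusted p = 8.1e-33, edgeR adjusted p = 4.0e-04). IL6 had 782, 117 and 29.9 in BRG1 samples against 1.22, 7.04 and 3.03, a log2 fold change of 6.37 (SE 1.38, DESeq2 adjusted p = 6.4e-05, edgeR adjusted p = 0.0206), and limma-voom did not call it (adjusted p = 0.115). Like C3, both cytokine genes were highest in BRG1 sample 1 and lowest in BRG1 sample 3, an order that 68.4% of the genes called higher had. LIF rose with a log2 fold change of 3.11 (SE 0.51, DESeq2 adjusted p = 2.0e-08, edgeR adjusted p = 0.00888), and IFNB1 was at least 18.2-fold higher against the floor (DESeq2 adjusted p = 6.8e-07, edgeR adjusted p = 0.00139). LIFR, TNF and IFNB1 fall outside the naming rule and were chosen after their values were seen.

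Genes of factors that carry the interferon signal were already transcribed in Control samples. IRF9 rose from 1550 ± 32.8 to 6796 ± 686 (SD, n = 3), with a log2 fold change of 2.13 (SE 0.14, DESeq2 adjusted p = 1.1e-52, edgeR adjusted p = 6.3e-05). STAT2 and NLRC5, a regulator of MHC class I genes, rose by 1.33 and 1.70 on the log2 scale (edgeR adjusted p = 0.00104 and 0.00174). Unlike the called complement members, IRF9 was highest in BRG1 sample 2. IRF2 (log2 fold change 0.51, DESeq2 adjusted p = 0.0264) and TNFRSF1A (0.59, DESeq2 adjusted p = 0.0246) were not called by edgeR, with adjusted p of 0.108 and 0.0737. IRF1, named after its values were seen, had 6400, 5760 and 570 in Control samples and 14244, 16698 and 2233 in BRG1 samples. Both samples numbered 3 were far below the others, and the call depended on the block (adjusted p of DESeq2 0.586 without and 1.1e-21 with it).

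Genes near the members were read as a comparison by position, taking the 3 nearest on each side. Of 33 such genes 30 were tested. DESeq2 called 3 of them higher, against 11.0% of all genes tested, and 0 lower (1 at unadjusted p under 0.05). The edgeR calls among them were 2 higher and 0 lower. One was C4BPB, described above. TNXB, encoding the matrix protein tenascin-X, lies 5735 bases from C4B on the opposite strand. It had 122, 51.6 and 118 normalised counts in Control samples and 805, 562 and 504 in BRG1 samples. Its groups did not overlap, and its log2 fold change of 2.68 (SE 0.36, DESeq2 adjusted p = 2.0e-12, edgeR adjusted p = 0.00261) compares with 1.95 for C4B. SLC44A4, a choline transporter family gene, had 0, 1.17 and 1.51 normalised counts in Control and 7.25, 24.9 and 5.97 in BRG1 samples. Against the floor it was at least 4.04-fold higher (DESeq2 adjusted p = 0.0467), or at least 2.10-fold without BRG1 sample 2. Its call was lost with the block (adjusted p = 0.0853) and without any 1 sample other than BRG1 sample 3 (adjusted p from 0.109 to 0.544). STK19, NELFE, DXO, EHMT2, ZBTB12 and ATF6B, around C2, CFB and C4, had log2 fold changes between -0.17 and -0.04 and were not called. CYP21A2, which encodes steroid 21-hydroxylase and lies 2909 bases from C4B on its TNXB side, was also not called (log2 fold change 1.48, DESeq2 adjusted p = 0.215). It had 4.87, 8.21 and 9.09 normalised counts in Control and 30.5, 19.1 and 11.9 in BRG1 samples, which did not overlap. It is named after its values were seen, as are the 6 genes before it.

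Complement genes are also transcribed by other cell types, so markers of those were read in the same samples. DESeq2 called 11.0% of all genes tested higher. Each marker list also held genes without an adjusted p, among them the leukocyte markers at the floor. The counts below are therefore not shares of tested genes and do not compare directly with 11.0%. Of 9 leukocyte markers LYZ was called higher and 5 were at the floor, among them CD163, TYROBP and CD3E, and their summed normalised counts were 351 to 678 in Control and 387 to 764 in BRG1 samples. Most of that sum was PTPRC, with 505 ± 167 and 520 ± 185 (SD, n = 3). Of 7 hepatocyte markers APOA1 and SERPINA1 were called higher, TTR was at the floor, and the sums were 76.7 to 93.1 and 325 to 708. The rise in that sum was mostly APOA1, an apolipoprotein gene, with 1.69 ± 0.584 and 383 ± 212 (SD, n = 3), while ALB, which encodes albumin, had 57.5 ± 13.1 and 54.0 ± 31.4. Of 6 granulosa cell markers INHBA and CYP19A1 were called higher, and the sums were 400 to 532 and 948 to 2063, while FOXL2, a defining granulosa factor, was at the floor in every sample. The part of these shifts in the complement result was not tested.

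The genes whose pattern over the 6 samples was most like that of C3 were KRT5 (Pearson r = 1.000), FOLR1, FAM65B, GNAO1 and FAM49A (r = 0.999 each), among 11686 genes whose normalised counts averaged at least 100. KRT5 encodes a basal epithelial keratin and FOLR1 a folate receptor. Among the members r with C3 was 0.994 for CD55, 0.988 for C1S, 0.983 for CFI, 0.977 for C1R, 0.975 for C4B, 0.964 for C4A and 0.589 for C2, while CFB averaged under 100 normalised counts and was not compared. These values are a description over 6 samples in 2 groups on the log2(normalised count + 1) scale. The samples differ in group and in library depth, and the part of each in r was not tested.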

How the data were processed

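RNA-seq of 3 Control and 3 BRG1 samples was used. The authors checked reads with FastQC (0.11.5), aligned them with STAR (2.5.3a), quantified transcripts of GENCODE release 24 with salmon (0.8.2) and combined transcripts by gene with tximport. What the authors deposited is a table of estimated counts, 1 row per symbol, scaled for transcript length and library size (lengthScaledTPM). Reads shared by near-identical copies or overlapping genes were split by salmon's model, the libraries (500 ng of RNA, paired reads of 78 bases) did not keep strand, and SMARCA4 includes plasmid transcripts.

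Estimated counts were rounded and tested with DESeq2 (1.42.0, R 4.3.3), the study's tool, BRG1 against Control over the whole table, with Benjamini-Hochberg adjusted p under 0.05 as the threshold. Counts printed are divided by DESeq2 size factors. The edgeR quasi-likelihood test (4.0.16), limma-voom (3.58.1), TMM scaling, low-count filters (10 counts in 3 samples), each sample left out and the replicate number as a block were alternatives. All except the fits with a sample left out were tested on simulated data that held no replicate effect. There the false calls of DESeq2 were above the share set by its threshold and those of edgeR close to it. For that reason edgeR values are given beside most DESeq2 calls. P-values measure the spread between these transfections of 1 line. The totals set the counting error. A group with at most 3 counts in each library was treated as being at the floor.

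Replicate numbers were taken to pair the samples, from the data alone: deviations of same-numbered samples from their group means correlated at 0.52, 0.52 and 0.61, each over 0.1. Members and gene lists were chosen with earlier results of these data known. Named were all members, called genes of the other lists averaging at least 100 normalised counts or called lower, called neighbours, SMARCA4, SMARCA2 and the 5 genes most correlated with C3. Positions are of GRCh38 (GENCODE release 44), and promoters of RefSeq, which had a window at any start for 5 of the 9 members and at the MANE Select start for 4. Some genes of the lists are counted but not reported here by name.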

Additional observations from a re-analysis of the deposited data

How the results depend on the processing

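The log2 fold changes of the 9 members and of the C4 sum kept their direction and their side of the threshold in all 127 alternatives run. C3 ranged from 5.95 to 7.14, CFI from 5.56 to 6.48, CFB from 2.10 to 2.93 and C2 from 0.18 to 0.75. Summing C4A and C4B leaves no value for either copy. The 294 genes called lower moved to 146 with edgeR, 169 with limma-voom, 1035 with the replicate block, 809 with that block in edgeR, 130 at adjusted p under 0.01, 11 at a log2 fold change of at least 1, and 117 (without BRG1 sample 2) to 596 (without BRG1 sample 3) with a sample left out. With the replicate block the inducers called higher went from 12 to 19 and those called lower from 0 to 1, and PHB2, a neighbour named after its values were seen, was called lower by DESeq2 (adjusted p = 0.0295) but not by edgeR with that block (0.0587), while SLC44A4 was lost. The block changed no call among the members or the other complement genes, of which 5 instead of 6 were called without BRG1 sample 1, SERPING1 being lost. Inducers called were 8 with limma-voom, which lost IL6 among others (adjusted p = 0.115). The C4A share difference ran from -1.18 (without Control sample 3) to 3.38 percentage points with a sample left out. The log2 ratio of C1R to C1S differed by -0.21, -0.12 and -0.04 without Control sample 2, Control sample 3 and BRG1 sample 2, and by up to 0.75 otherwise. The low counts of C3 and CFI in Control samples limit how precisely their folds are known.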
